A study of Mus musculus with 6 samples.

Results

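The 10 genes described here, Smarca4, Smarca2, Actl6a, Actl6b, Dpf1, Dpf2, Dpf3, Phf10, Ss18 and Ss18l1, encode alternative subunits of the BAF chromatin remodelling complex. Most of these subunits exchange between neural progenitors and neurons, and Smarca4 and Smarca2 are the alternative ATPases. The genes were chosen as a fixed list of symbols from a table of 55400 genes, and all 10 were found in it. The cells were motor neuron progenitors on day 4 of differentiation, derived from C57BL/6 embryonic stem cells of the mouse, and their polyadenylated RNA was sequenced. The 6 libraries form 2 groups of 3, labelled control and Setd5sh, and the genotype label of both is WT. All cells had 1 µM retinoic acid and 0.5 µM of the Sonic hedgehog agonist SAG from day 2, and 1 µg/mL doxycycline for 36 h before harvest is described alike for both groups. From its name, Setd5sh would be a hairpin knockdown of the SET domain gene Setd5; the labels give neither the hairpin nor what the controls carried in its place. The stem cells had been grown on mouse embryonic fibroblasts. The labels do not tie replicates to separate cultures. All p-values therefore rest on the spread among these libraries, and that spread may be technical.

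BAF complexes use the energy of ATP to move nucleosomes. Each complex holds 1 of 2 alternative ATPases, Smarca4 (Brg1) or Smarca2 (Brm). As neural progenitors leave the cell cycle, several positions of the complex are known to change occupant: the actin-related protein Actl6a (BAF53a) gives way to Actl6b (BAF53b), the double PHD finger proteins Phf10 (BAF45a) and Dpf2 (BAF45d) to Dpf1 (BAF45b) and Dpf3 (BAF45c), and Ss18 to Ss18l1 (CREST). The repressor REST keeps many neuronal genes silent outside neurons, and the microRNA miR-9-3p, once called miR-9*, is known to act on the Actl6a 3′ UTR during the exchange.

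The sequences that bear on the ACTL6 exchange are shown first, because this pair had the largest difference in level within a position. In the promoter of Actl6b, the capitals mark both parts of RE1, the element that REST binds, read on the minus strand. The promoter of Actl6a, where neither part was found, is given for comparison. Both are on the plus strand of GRCm38.p6, from RefSeq. The Actl6a window lies downstream of the GENCODE M21 start of the gene at 32706298, and the sequence around that start was not searched.
Actl6b promoter, chr5:137553296-137553595: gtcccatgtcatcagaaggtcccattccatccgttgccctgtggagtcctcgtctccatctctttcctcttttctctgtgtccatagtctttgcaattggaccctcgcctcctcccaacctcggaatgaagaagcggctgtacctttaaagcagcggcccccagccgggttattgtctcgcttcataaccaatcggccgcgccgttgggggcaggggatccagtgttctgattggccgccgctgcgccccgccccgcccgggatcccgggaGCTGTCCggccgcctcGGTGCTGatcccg
Actl6a promoter, chr3:32708296-32708595: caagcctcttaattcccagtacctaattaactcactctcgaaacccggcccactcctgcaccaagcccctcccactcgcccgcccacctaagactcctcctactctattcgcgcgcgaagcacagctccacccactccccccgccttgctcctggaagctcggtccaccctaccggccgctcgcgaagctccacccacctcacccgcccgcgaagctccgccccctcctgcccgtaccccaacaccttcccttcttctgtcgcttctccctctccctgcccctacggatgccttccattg

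The parts of RE1 searched, on both strands, were CAGCACC and GGACAGC. In Actl6b they stood 9 bases apart, from base 22 to base 44 of the RefSeq transcript, at chromosome 5, 137553567 to 137553589. Of 32851 promoter windows of 300 bases in the table, 10 (0.0304%) held both parts 7 to 10 bases apart, and 2 (0.00609%) held them exactly 9 apart, a spacing looked for after the Actl6b sequence had been seen. The standard spacing of 2 bases was found in 7 windows (0.0213%) and in no member. CAGCACC alone was in 7.14% of windows and GGACAGC alone in 6.56%. Actl6b was the only member with either part, among the 9 whose promoter was matched (all but Ss18). All 9 windows were richer in CpG than the median window, which held 7 CpG: Actl6a held 21 and Actl6b 23, and the range was from 17 in Dpf3 to 62 in Phf10. These matches are letters in a window and not measured binding.

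The mature microRNA is shown with its seed, bases 2 to 8, in capitals, and beside it its match in the Actl6a 3′ UTR, with the bases that pair with the seed in capitals.
mmu-miR-9-3p: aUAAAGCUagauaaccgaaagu
Actl6a 3′ UTR match: ctcaacgtctgtAGCTTTAgtacactc

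The match lies at bases 38 to 44 of the longest annotated Actl6a 3′ UTR, which has 371 bases, at chromosome 3, 32726640 to 32726646 on the plus strand of mm10 (GENCODE M21). Among 15654 genes whose longest 3′ UTR has at least that length, 441 (2.82%) held AGCTTTA in its first 371 bases. Smarca2 was the only other member with a match, 1 in a UTR of 952 bases. The microRNA itself was not measured, since the libraries were made from polyadenylated RNA.

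Levels are given in FPKM, the authors' counts scaled to exonic length and to the library's total, so that genes of different length can be set side by side. Such comparisons depend on the deposited exonic length, for example 14269 bases for Smarca2, 10193 for Ss18 and 4343 for Ss18l1. Total counts per library ranged from 19639303 to 32046466. Setd5 stood at 22.2, 18.8 and 16.7 FPKM in control replicates 1, 2 and 3 and at 14.4, 13.5 and 12.9 FPKM in the Setd5sh replicates, lower in each Setd5sh library than in any control library, with a log2 fold change of -0.51 (SE 0.16, edgeR adjusted p = 0.995). Control replicate 1 stood apart from the rest: 12.4% of 12199 genes differed by more than 1 log2 unit from the mean of the other libraries, against 1.45% to 3.93% in the other 5, and that difference had a correlation of -0.615 with GC content across genes. Progenitor markers were high (summed FPKM of 14 genes from 642 to 883), and neuron markers lower (17 genes, 64.6 to 104). Pluripotency markers were highest in both libraries numbered 2, at a summed 87.8 FPKM in control and 65.0 FPKM in Setd5sh against 10.1 to 28.9 in the other 4. Fibroblast markers of the feeder cells summed to between 6.86 and 11.7 FPKM over 10 genes.

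In these day 4 progenitors, the progenitor form was the more abundant mRNA in every exchanging position and in every library. Between the alternative ATPases, Smarca4 was above Smarca2 in every library. Smarca4 led with a mean of 85.6 FPKM over the 6 libraries, followed by Actl6a at 44.8, Phf10 at 31.6, Dpf2 at 30.4 and Ss18 at 10.5 FPKM. The neuronal forms and the ATPase Smarca2 came below: Ss18l1 at 2.97, Dpf1 at 1.85, Smarca2 at 1.15, Dpf3 at 0.213 and Actl6b at 0.015 FPKM. Only Phf10 and Dpf2, neighbours in this order, overlapped over the 6 libraries; every other neighbouring pair was separated. No member passed the test between Setd5sh and control. Of 29462 genes with at least 1 count, 98.2% had a lower mean FPKM than Smarca4 and 13.6% a lower one than Actl6b.

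**Figure D1:**
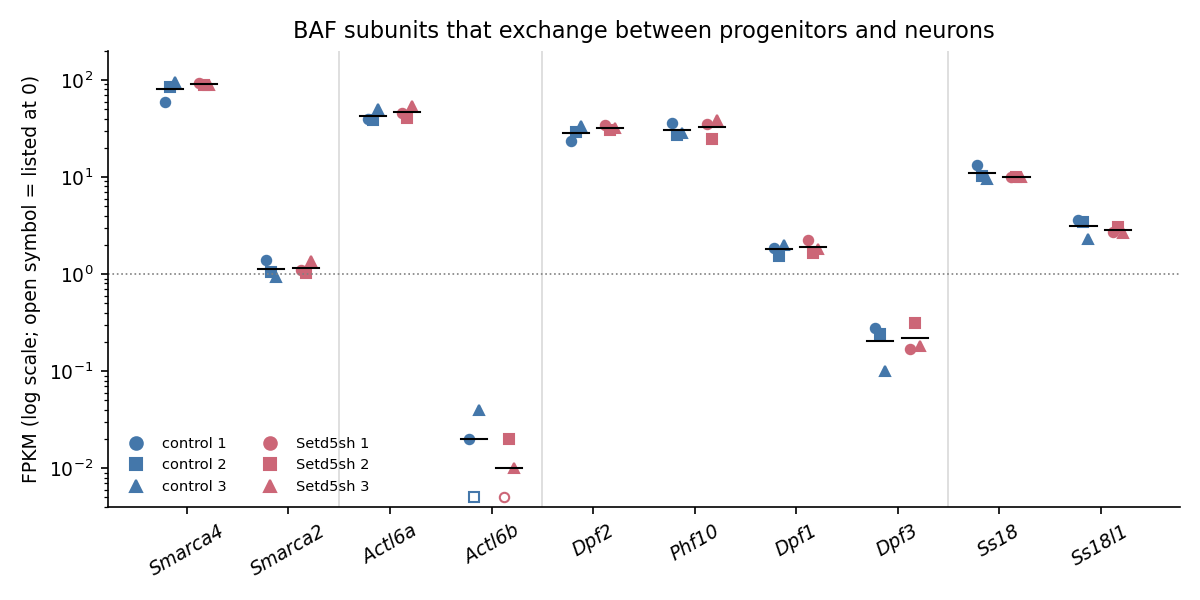
FPKM of the 10 genes (log axis) in each library, with control in blue, Setd5sh in red, symbols for replicate numbers and black bars for group means; the dotted line is 1 FPKM. Progenitor forms and Smarca4 lie at 9.48 FPKM or above, and neuronal forms and Smarca2 at 3.64 FPKM or below, in all 6 libraries. The open symbols are the libraries where Actl6b is listed at 0.

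Smarca4 (ENSMUSG00000032187, chromosome 9, 21616169 to 21704230), the catalytic subunit that predominates in stem cells and progenitors, stood at 59.7, 85.0 and 95.8 FPKM in control replicates 1, 2 and 3 and at 93.9, 89.4 and 89.8 FPKM in Setd5sh replicates 1, 2 and 3. Control replicate 1 was lower than every other library, at 66.0% of the mean of the other 2 controls, and the groups overlapped. The group means were 80.2 ± 18.6 FPKM in control and 91.0 ± 2.46 FPKM in Setd5sh (SD, n = 3 each). The log2 fold change, Setd5sh minus control, was 0.18 (SE 0.18, 95% interval -0.24 to 0.60, edgeR adjusted p = 0.995). It was 0.037 without control replicate 1 and 0.33 without control replicate 3.

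Smarca2 (ENSMUSG00000024921, chromosome 19, 26605050 to 26778322), the alternative ATPase, stood at 1.41, 1.05 and 0.93 FPKM in the control replicates and at 1.09, 1.02 and 1.38 FPKM in the Setd5sh replicates. Here control replicate 1 was the highest library, and Setd5sh replicate 3 was close to it. The log2 fold change was 0.03 (SE 0.24, 95% interval -0.53 to 0.58, edgeR adjusted p = 0.999); it turned to -0.11 without Setd5sh replicate 3 and was 0.26 without control replicate 1. Smarca2 made up 2.31% of the summed FPKM of both ATPases in control replicate 1 and 0.962% to 1.51% in the other 5 libraries. The control mean of that share was 1.5% ± 0.715 and the Setd5sh mean 1.26% ± 0.217 (SD, n = 3 each), and the groups overlapped. Without control replicate 1 the control mean was 1.09%.

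Actl6a (ENSMUSG00000027671, chromosome 3, 32706298 to 32726973), the actin-like subunit of progenitor BAF, stood at 39.6, 38.9 and 50.4 FPKM in control and 45.7, 40.8 and 53.7 FPKM in Setd5sh replicates 1, 2 and 3. Both libraries numbered 3 were the highest of their group, and Setd5sh was above control in all 3 same-numbered pairs, while the groups overlapped. The means were 43.0 ± 6.42 and 46.7 ± 6.49 FPKM (SD, n = 3 each), a log2 fold change of 0.11 (SE 0.17, 95% interval -0.29 to 0.52, edgeR adjusted p = 0.995). It ranged from 0.0028 without Setd5sh replicate 3 to 0.24 without control replicate 3 or without Setd5sh replicate 2.

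Actl6b (ENSMUSG00000029712, chromosome 5, 137553517 to 137569582), the neuron-specific counterpart whose promoter holds the RE1 parts shown above, had 3, 0 and 3 counts in control and 0, 2 and 1 counts in Setd5sh replicates 1, 2 and 3. No library exceeded 3 counts, so no fold between the groups is given. A library with 3 counts corresponds to between 0.0219 and 0.0358 FPKM here, and the 9 counts of all 6 libraries together to 0.0143 FPKM (95% Poisson interval 0.00656 to 0.0272, counting error only). Per length and over all libraries, Actl6a was 3060-fold more abundant than Actl6b (exact binomial 95% interval 1610 to 6690, counting error only). The share of Actl6b in the pair was between 0% and 0.0794% in single libraries.

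The BAF45 position was occupied at the mRNA level by Phf10 and Dpf2 in comparable amounts. Phf10 (ENSMUSG00000023883, chromosome 17, 14945009 to 14961273), which is also the BAF45 subunit of the PBAF form of the complex, stood at 36.4, 26.8 and 28.3 FPKM in control and 35.1, 24.8 and 38.5 FPKM in Setd5sh replicates 1, 2 and 3. Both libraries numbered 2 were the lowest of their group. Dpf2 (ENSMUSG00000024826, chromosome 19, 5896516 to 5913010), the widely expressed family member, stood at 23.7, 29.1 and 33.5 FPKM in control and 34.2, 30.2 and 31.9 FPKM in Setd5sh, with control replicate 1 below all others. Phf10 took 58.5%, 46.5% and 44.3% of the summed FPKM of the 4 BAF45 genes in control replicates 1, 2 and 3 and 48.9%, 43.5% and 53.2% in the Setd5sh replicates; Dpf2 took 38.1% to 53.1%. Which of them was higher therefore differed between libraries, with Phf10 ahead in control replicate 1 and Setd5sh replicates 1 and 3.

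Neither changed past the threshold. Phf10 had a log2 fold change of 0.09 (SE 0.22, 95% interval -0.42 to 0.60, edgeR adjusted p = 0.995), which was 0.28 without control replicate 1, 0.28 in the blocked fit that also removes trends with GC and length, and -0.039 without Setd5sh replicate 3. Dpf2 had 0.15 (SE 0.16, 95% interval -0.22 to 0.52, edgeR adjusted p = 0.995), and 0.065 without control replicate 1.

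The neuronal BAF45 genes were present at low levels. Dpf1 (ENSMUSG00000030584, chromosome 7, 29303951 to 29318243) stood at 1.85, 1.54 and 1.99 FPKM in control and 2.26, 1.65 and 1.81 FPKM in Setd5sh, on 191 to 318 counts per library. All 6 values lay within a narrow range and the groups overlapped. The log2 fold change was 0.08 (SE 0.24, 95% interval -0.47 to 0.62, edgeR adjusted p = 0.995) and turned to -0.075 without Setd5sh replicate 1. Dpf3 (ENSMUSG00000021221, chromosome 12, 83213745 to 83487716) had only 8 to 38 counts per library, or 0.28, 0.24 and 0.10 FPKM in control and 0.17, 0.31 and 0.18 FPKM in Setd5sh. It lies below the minimum of 1 FPKM used for the test. In the fit of all 29462 genes with a count, its log2 fold change was 0.17 (SE 0.56, 95% interval -0.94 to 1.27, edgeR adjusted p = 0.987), and it was 0.44 without control replicate 1 and -0.15 without control replicate 3. Dpf1 and Dpf3 together made up 3.26% ± 0.17 of the BAF45 FPKM in control and 3.19% ± 0.388 in Setd5sh (SD, n = 3 each).

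Ss18 and Ss18l1 were the pair with the largest neuronal share. Ss18 (ENSMUSG00000037013, chromosome 18, 14624198 to 14682914), a transcriptional coactivator subunit, stood at 13.4, 10.2 and 9.48 FPKM in control and 9.96, 9.92 and 10.1 FPKM in Setd5sh, with control replicate 1 above all other libraries. Ss18l1 (ENSMUSG00000039086, chromosome 2, 180042509 to 180070201), whose product is known as a calcium-responsive transactivator in neurons, stood at 3.64, 3.46 and 2.28 FPKM in control and 2.69, 3.08 and 2.68 FPKM in Setd5sh. The lowest and the highest Ss18l1 values were both in control. Ss18l1 took 21.4%, 25.3% and 19.4% of the pair in control and 21.3%, 23.7% and 21% in Setd5sh, with means of 22.0% ± 3.02 and 22.0% ± 1.5 (SD, n = 3 each). Without division by exonic length, the means were 10.8% in control and 10.7% in Setd5sh. Both libraries numbered 2, where the pluripotency markers were also highest, had the largest share of their group; the part of those cells in it was not tested.

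The fold changes of both were negative with all 6 libraries. Ss18 had -0.16 (SE 0.18, 95% interval -0.57 to 0.26, edgeR adjusted p = 0.995), which turned to 0.051 without control replicate 1 and to 0.037 in the blocked fit that also removes trends with GC and length. Ss18l1 had -0.16 (SE 0.23, 95% interval -0.71 to 0.38, edgeR adjusted p = 0.995), and 0.0014 without control replicate 1. In bulk RNA, fewer cells of a type and less RNA per cell cannot be told apart, for these shares as for the levels.

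**Figure D2:**
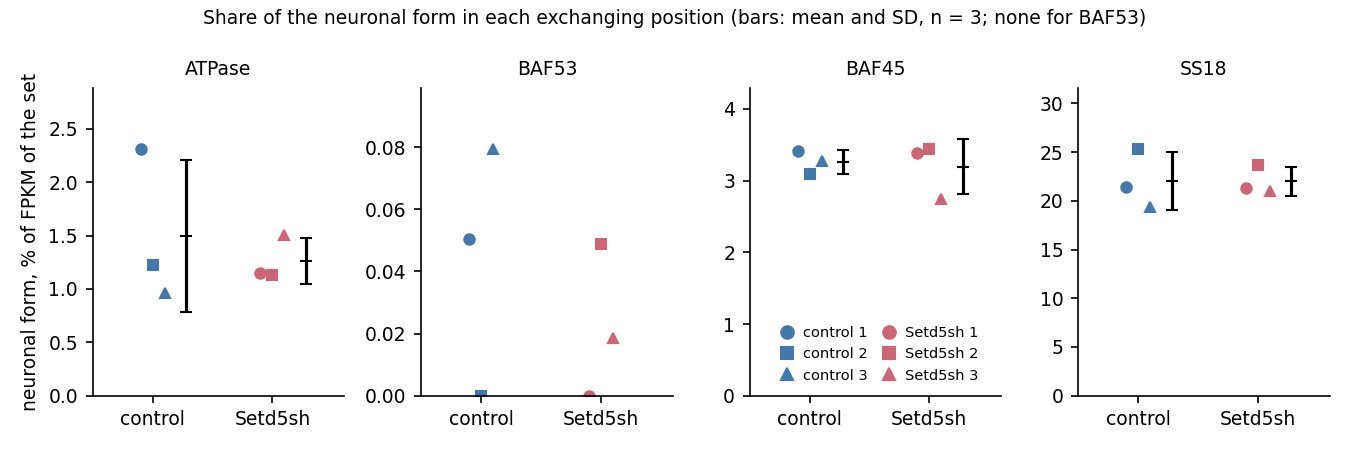
Share of the neuronal form in the summed FPKM of each position, in percent, by library, with the mean and SD of each group beside the points (none for BAF53, where counts are at most 3). For the ATPase, the share is that of Smarca2, an alternative ATPase and not a neuronal form. The vertical axes differ: the share is near 22% for SS18, near 3% for BAF45, between 0.962% and 2.31% for the ATPase and under 0.08% for BAF53.

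Across the list, 0 of the 8 members with a mean of at least 1 FPKM passed in edgeR after adjustment over all 12199 genes, where 0.0% of genes passed, and 0 had an unadjusted p under 0.05, against 1.22% of all genes tested. In DESeq2, 0 of 12199 genes passed and 221 had an unadjusted p under 0.05. Of the 8 members, 6 had a positive log2 fold change, against 42.6% of all genes, and the median was 0.08 against -0.04. Without control replicate 1, all 8 were positive, against 51.5% of all genes, with the same median of 0.08; without control replicate 2, 3 of 8 were. The 95% intervals of the 8 members ran from -0.71 at the lowest, for Ss18l1, to 0.62 at the highest, for Dpf1, so 3 libraries a group leave room for changes of that size. Over all alternatives, the smallest adjusted p of any member was 0.57, for Smarca4 without control replicate 3. In no member were all Setd5sh libraries above or all below the controls, which was the case for 5.21% of all genes tested.

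**Figure D3:**
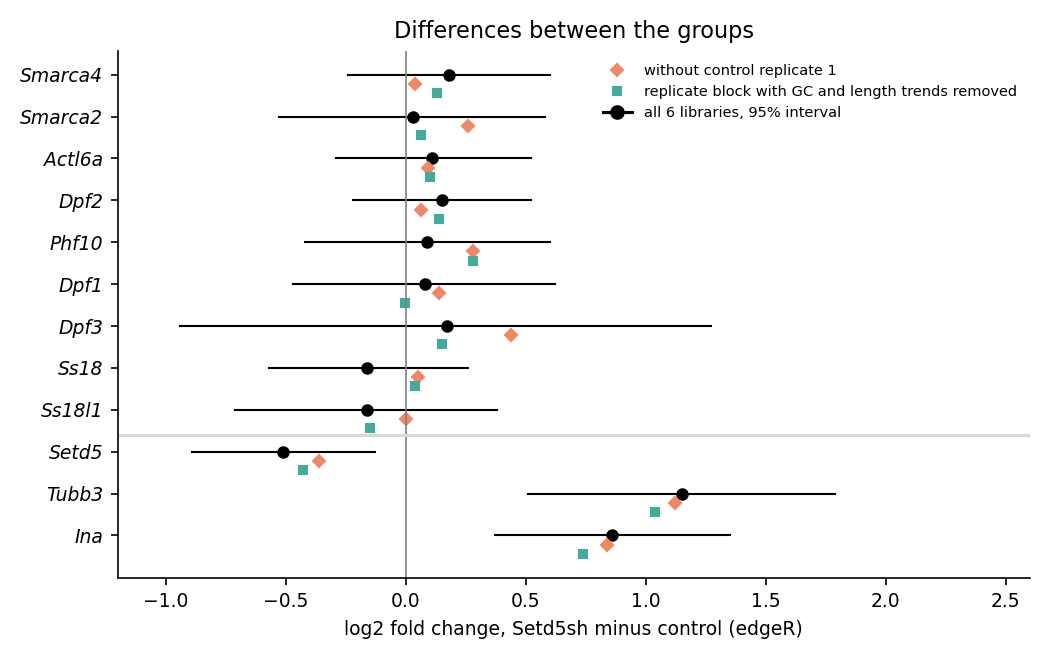
Log2 fold change of Setd5sh minus control from edgeR for the members other than Actl6b (above the line) and for Setd5 and the neuron markers with the smallest p, Tubb3 and Ina (below it), with 95% intervals; orange diamonds leave out control replicate 1 and green squares block on replicate number and remove trends with GC and length. Dpf3 comes from the fit of all genes with a count. The interval of each member spans 0, while Setd5 lies at -0.51, Tubb3 at 1.15 and Ina at 0.86, none of which passed the adjusted threshold.

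Marker genes of neurons and progenitors were read beside the subunits, and their differences varied in size and direction from gene to gene. Of 17 neuron markers, 9 reached 1 FPKM and 0 passed in edgeR. Of these 9, 8 had log2 fold changes above 0, with a median of 0.38. When single libraries were left out, the lowest median was 0.23, without control replicate 2, where 6 of 9 were positive. The highest was 0.84, without control replicate 1, where 8 were. The smallest p-values belonged to Tubb3 and Ina. Tubb3, the neuronal beta-tubulin, measured 19.0, 17.3 and 26.1 FPKM in the control replicates, against 53.5, 30.5 and 55.0 FPKM in the Setd5sh ones, a log2 fold change of 1.15 (SE 0.27, edgeR adjusted p = 0.995). Ina, an intermediate filament of young neurons, had a log2 fold change of 0.86 (SE 0.21, edgeR adjusted p = 0.995). Both were higher in every Setd5sh library than in any control library. This held for 3 of the 9 tested neuron markers, the other being Nefl, and for 3.07% of all genes tested.

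The other tested genes of the list, named after their values were seen, ranged widely. Nefm at 0.57, Isl1 at 0.53, Elavl3 at 0.38 and Nefl at 0.32 had the same direction as Tubb3, while Elavl4 had 0.01 and Gap43 0.06. Mnx1, a transcription factor of motor neurons, had -0.61, the 1 negative log2 fold change of the 9 tested. It was lower in Setd5sh in all 3 same-numbered pairs. The summed level of all 17 markers was 64.6 to 70.2 FPKM in control and 76.3 to 104 FPKM in Setd5sh. Without Tubb3, a sum added after seeing the data, the other 16 gave 38.5 to 51.2 FPKM in control and 45.7 to 50.9 FPKM in Setd5sh, so the groups overlapped. Genes of differentiated neurons ranged from Syt1, at no more than 0.07 FPKM, and Snap25, at no more than 0.17 FPKM, to Stmn2, at 0.62 to 0.97 FPKM, and Map2, at 0.57 to 1.33 FPKM. The latter pair lies near the level of Smarca2. Of the 14 progenitor markers, 0 passed in edgeR, and 8 were positive with a median of 0.13. When single libraries were left out, the lowest median was 0.11, without control replicate 2, where 8 were positive. The highest was 0.36, without control replicate 1, where 11 were. Among the progenitor markers Vim had 0.45 (SE 0.19) and Hes5 0.53 (SE 0.25), and both exceeded control in each of the 3 same-numbered pairs. So did Nes at 0.44 and Olig2 at 0.34, named after their values were seen. With all libraries 6 of the 14 were negative, among them, also named afterwards, Sox1 at -0.17 and Mki67 at -0.98. Mki67 stood at 78.2 FPKM in control replicate 1 and at 13.1 to 23.0 FPKM in the other 5 libraries. The groups did not overlap in 1 higher marker, Hes5, and 1 lower, Sox1, against 3.07% and 2.14% of all genes tested. The part of these marker differences in the subunit levels was not tested.

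The other subunits of the BAF family put the members in context. Of 21 genes listed, 19 reached 1 FPKM, and 0 of them passed in edgeR, with 15 log2 fold changes above 0 and a median of 0.04. Actb, the actin that pairs with the ACTL6 protein in the complex and also forms the cytoskeleton, was highest at a mean of 732 FPKM. Bcl11a was lowest, at 0.0217 FPKM, and its relative Bcl11b stood at 0.0267 FPKM; both are subunits known from neurons and lymphocytes and were named after their values were seen. All 7 tested genes of the shared core (Smarcc1, Smarcc2, Smarcd1, Smarcd2, Smarcd3, Smarcb1 and Smarce1) had small positive values, with a median of 0.04, but 4 of 7 did without control replicate 1 and 3 of 6 with a minimum mean of 5 FPKM. Among the genes with the smallest p, Smarcd1 averaged 62.0 FPKM in control against 73.1 FPKM in Setd5sh (log2 fold change 0.24, SE 0.20, and 0.089 without control replicate 1), and Bcl7b at 9.52 and 11.1 FPKM (0.22, SE 0.20, and 0.061 without Setd5sh replicate 1).

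Subunits that define the subtypes of the complex differed in their order but not past the threshold. Arid1a, the large DNA-binding subunit of canonical BAF, measured 34.7, 35.5 and 36.1 FPKM in the control replicates, against 43.1, 38.5 and 39.9 FPKM in the Setd5sh ones. Its alternative Arid1b, named after its values were seen, measured 7.78, 7.95 and 8.72 FPKM in the control replicates, against 8.91, 8.87 and 9.27 FPKM in the Setd5sh ones. For both, every Setd5sh library was above every control library; this held for 2 of the 19 tested subunits and for 3.07% of all genes tested. The log2 fold changes were small, at 0.18 (SE 0.13) for Arid1a and 0.14 (SE 0.13) for Arid1b, each with an edgeR adjusted p = 0.995. The PBAF subunits Arid2, Pbrm1 and Brd7, which share their complex with Phf10, had negative values with a median of -0.12; without control replicate 1 the median was 0.17, with 2 of 3 positive. Pbrm1, which reads acetylated histones, stood at 27.7 FPKM in control replicate 1 and at 9.56 to 14.1 FPKM in the other 5 libraries, and its log2 fold change of -0.44 (SE 0.39) turned to 0.20 without that library. Brd9, Bicra and Bicral of non-canonical BAF had a median of 0.02.

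**Figure D4:**
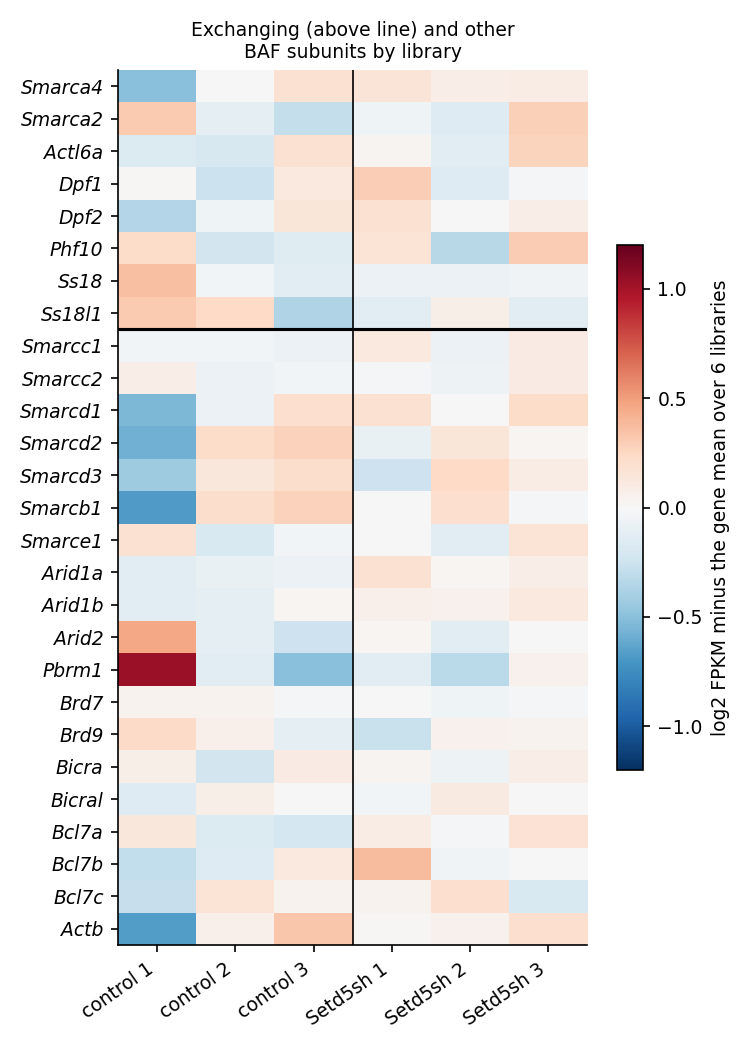
Log2 FPKM minus the gene's mean over the 6 libraries for the 8 members with at least 1 FPKM (above the line) and 19 other BAF subunits, with libraries as columns. Control replicate 1 has the strongest colors, with Pbrm1 high and Smarcb1, Actb and Smarcd2 low.

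The deviation of control replicate 1 in these genes went with base composition. Over the 27 tested subunit genes, the log2 level in control replicate 1 minus the mean of the other 5 libraries had a Pearson correlation of -0.59 (Spearman -0.54) with the GC content of the longest transcript. This is a description across genes of the same libraries and not across replicates. Ss18 and Phf10, with 44.1% and 42.4% GC, were 0.43 and 0.27 higher there, and Smarca4, with 55.9% GC, was 0.60 lower. Smarca2 and Dpf2, both at 51.1% GC, differed in direction, at 0.38 and -0.42, and Smarcb1 and Actb lay at -0.81 and -0.80 with 49.3% and 51.1%. Without control replicate 1, the log2 fold changes of the 9 members given lay between 0.0014 for Ss18l1 and 0.44 for Dpf3.

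**Figure D5:**
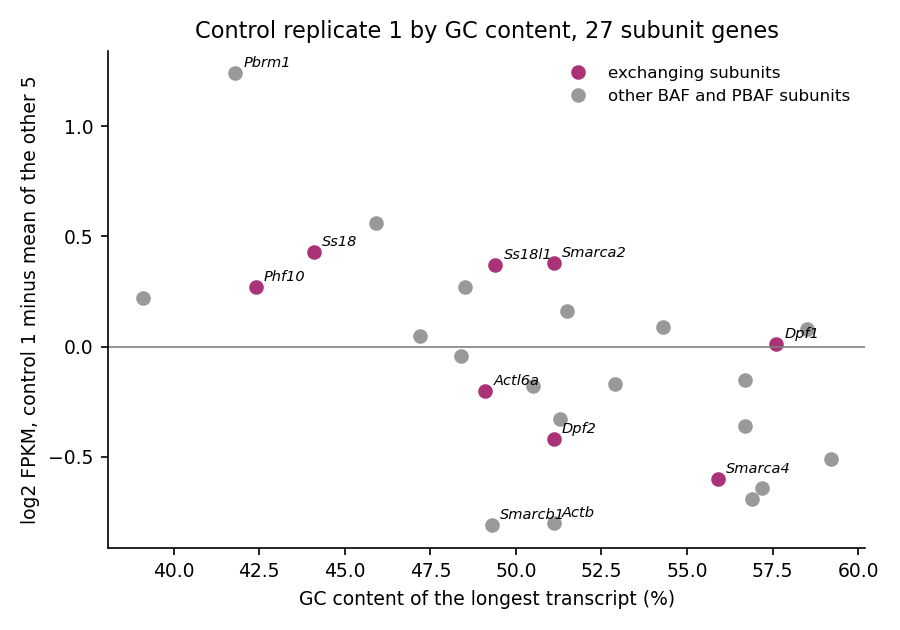
Log2 FPKM of control replicate 1 minus the mean of the other 5 libraries against the GC content of the longest transcript, for 8 members (purple) and 19 other subunits (grey). Low-GC genes such as Pbrm1, Phf10 and Ss18 lie above 0 and Smarca4 below it, with a Pearson correlation of -0.59 over 27 genes.

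Of the genes known to act upstream of the exchange, 11 of 13 listed reached 1 FPKM, and 0 passed in edgeR, with a median log2 fold change of -0.05. Rest measured 12.2, 13.1 and 8.38 FPKM in the control replicates, against 7.63, 10.97 and 8.08 FPKM in the Setd5sh ones. It was lower in Setd5sh in all 3 same-numbered pairs, but Setd5sh replicate 2 lay above control replicate 3. The log2 fold change was -0.34 (SE 0.21, 95% interval -0.84 to 0.15, edgeR adjusted p = 0.995), with a range from -0.51 to -0.24 when single libraries were left out. Its corepressor Rcor2 was far more abundant, at 70.5 FPKM in control against 78.7 FPKM in Setd5sh (0.15, SE 0.14), and Rcor3 stood at 1.22 and 0.890 FPKM (-0.46, SE 0.28, and -0.12 without control replicate 1).

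The splicing repressor Ptbp1 had the highest level of this list, with a mean of 207 FPKM. Its neuronal relative Ptbp2 stood at 29.4 FPKM in control replicate 1 and between 10.9 and 14.5 FPKM in the other 5 libraries. The Ptbp2 log2 fold change of -0.45 (SE 0.39) turned to 0.20 without control replicate 1. The transcripts that span miR-9 loci on the same strand were low. C130071C03Rik, which spans Mir9-2 and was named after its values were seen, measured 1.87, 0.82 and 0.61 FPKM in the control replicates, against 1.48, 0.77 and 1.47 FPKM in the Setd5sh ones. Mir9-3hg, which spans Mir9-3, was lowest in the list, at 0.05 to 0.19 FPKM. The list also held Mir124-2hg and Mir124a-1hg, by their names hosts of another microRNA, miR-124, and named after their values were seen. Mir124-2hg stood at 10.24 FPKM in control replicate 1 and at 2.88 to 4.64 FPKM in the other 5 libraries. Mir124a-1hg ranged from 0.41 to 1.09 FPKM.

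ATPases of the other remodeller families are given for comparison with Smarca4 and Smarca2. Of 17 listed, 16 were tested, 0 passed in edgeR, and 12 had negative log2 fold changes with a median of -0.36. Without control replicate 1, 15 of the 16 were positive, with a median of 0.21. Smarca1, an ISWI ATPase, measured 4.69, 2.35 and 1.80 FPKM in the control replicates, against 0.91, 1.63 and 1.56 FPKM in the Setd5sh ones, each Setd5sh library below each control library, as for 2.14% of all genes tested. Its log2 fold change was -1.13 (SE 0.41, edgeR adjusted p = 0.995) and -0.57 without control replicate 1. The negative values of Atrx, Chd9 and Smarca5, at -1.46 (SE 0.76), -0.75 (SE 0.43) and -0.55 (SE 0.36), turned to 0.25, 0.0076 and 0.041 without that library.

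Likeness to the pattern of Actl6a over the 6 libraries was measured by the mean absolute difference of centred log2 CPM. CPM are counts scaled to the library total as adjusted by TMM scaling. The genes most like Actl6a were Vipas39 at 0.0184, St7 at 0.0256 and Cct5 at 0.0313 among 12198 genes. Among the members, Dpf2 came closest, at 0.135 and rank 1341, followed by Dpf1 at 0.145 and rank 1701, and Ss18l1 was farthest, at 0.367 and rank 8886. Actl6b had too few counts for such a comparison.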

How the data were processed

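The authors deposited 1 table of 55400 genes with a raw count, an FPKM value per library and an exonic length. Per the submitters' processing notes, the build was mm10 and the tools listed were DESeq2, HTSeq, HISAT2 and SAMtools, with no roles or versions. No source used here gives the annotation release or strand setting. The deposited FPKM equal count over length and column total to within 0.005. Symbols for 55140 identifiers (99.5%) and positions came from GENCODE M21, and promoters and the microRNA from RefSeq tables (GRCm38.p6). Reads from genes that overlap the members cannot be told apart if counting ignored strand.

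The members and gene lists were chosen with earlier results of these data known. Genes with a mean of at least 1 FPKM (12199) were tested with edgeR's quasi-likelihood test on counts, TMM scaling, two-sided, with Benjamini-Hochberg adjustment and a threshold of 0.05; genes under 1 FPKM were read from a fit of all 29462 genes with a count. Intervals are 95%. Named genes are the members, Setd5, the 4 smallest p in each gene list, 2 in marker lists where described, and the highest and lowest by level. Deviations from group means correlated at 0.183, 0.663 and 0.139 between same-numbered libraries, while control replicate 1 had 0.166 with Setd5sh replicate 3. Neither the labels nor these values settle that same-numbered libraries are pairs. The main fit was therefore unpaired, with the replicate block as an alternative. Statements on same-numbered pairs are descriptions only. Alternatives were other scaling, other filters, DESeq2, limma on log2 FPKM, the block and leaving out each library. Scripts were tested on simulated counts. Versions were DESeq2 1.42.0, limma 3.58.1, edgeR 4.0.16, R 4.3.3, Python 3.11.15 and matplotlib 3.10.9.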

Additional observations from a re-analysis of the deposited data

How the results depend on the processing

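The count of genes called was 0 in all alternatives except with no filter on low values, where 73 of 29462 genes (0.248%) passed in edgeR, none of them a member; leaving out single libraries gave 0 to 0. With the replicate number as a block, with or without GC and length trends removed, 0 genes passed, and the block changed no call. The log2 fold changes with the block were 0.20 for Smarca4, 0.11 for Actl6a and -0.14 for Ss18l1. Without division by exonic length, the share of Smarca2 among the ATPases was 3.23% in control and 2.74% in Setd5sh. The neuronal share was then 3.02% for BAF45 in control, and 10.8% and 10.7% for SS18 in control and Setd5sh. Of 482 alternatives of 33 single genes, 459 kept direction and side of the threshold, 21 reversed and 2 passed, which were Atrx (-1.33) and Tubb3 (1.22) with no filter. Leaving out single libraries gave -0.11 to 0.26 for Smarca2, -0.075 to 0.21 for Dpf1, -0.15 to 0.44 for Dpf3, -0.039 to 0.30 for Phf10, -0.26 to 0.051 for Ss18, -0.35 to 0.0014 for Ss18l1, -0.72 to 0.20 for Pbrm1, -0.70 to 0.20 for Ptbp2, -1.91 to 0.25 for Atrx, -1.07 to 0.0076 for Chd9, -0.79 to 0.041 for Smarca5, -2.73 to 0.28 for Pou5f1 and -0.20 to 0.0013 for Mbp. In the blocked fit that removes trends with GC and length, Dpf1 reversed to -0.001, Ss18 to 0.037 and Ptbp2 to 0.21; the cause of these reversals was not tested. Depth limits Actl6b, at 3 counts or fewer per library, and Dpf3.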
